A study of Mus musculus with 8 samples.

Results

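The genes described here are 9 that write, read and erase DNA methylation: the methyltransferases *Dnmt1*, *Dnmt3a* and *Dnmt3b*, the maintenance cofactor *Uhrf1*, the dioxygenases *Tet1*, *Tet2* and *Tet3*, and the methyl-binding domain genes *Mbd2* and *Mbd3*. They were taken by symbol from a table of 23427 genes, and each symbol matched 1 row. The cells were primary oligodendrocyte precursor cells (OPCs), the dividing progenitors that mature into the myelin-forming oligodendrocytes (OLs), from wild-type (WT) mice of the strain C57BL/6J. Per the study's methods they were purified by immunopanning, on dishes coated with an antibody against PDGFRα, from the pooled cortices of young postnatal pups. Day 0 was the culture before differentiation, and Day 1, Day 2 and Day 3 are days after growth factors were removed and the thyroid hormone T3 was given. Every day had 2 libraries, which the methods call independent replicates, for 8 in all, and there was no group kept without T3. The labels and the methods describe the growth medium differently. Levels are in FPKM, which corrects the fragments of a gene for its transcript length and for the depth of the library. They can be set side by side between genes only as far as the transcript lengths used hold.

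DNA methylation in mammals is a methyl group on the cytosine of a CpG. Dnmt1 copies it onto the new strand after replication and is brought to half-methylated sites by Uhrf1, whereas Dnmt3a and Dnmt3b can methylate sites with no methyl group on either strand. Tet enzymes oxidise the methyl group, after which it is lost through replication or base excision repair. Mbd2 binds methylated CpG, while the mammalian Mbd3 has lost most of that affinity, and both are alternative subunits of the NuRD chromatin remodelling and deacetylase complex. In the oligodendrocyte lineage, Dnmt1 is known for its role in the expansion and differentiation of progenitors.

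The depth, estimated from the steps between low values, ran from 960000 to 1530000 fragments per library and was lowest at Day 3. The label was checked against marker genes: the summed FPKM of 5 oligodendrocyte genes was between 705 and 1009 at Day 0 and between 10210 and 14901 at Day 3, while that of 4 OPC genes was between 1002 and 1035 at Day 0 and between 162 and 261 at Day 3. The replicates differed in their astrocyte genes. The summed FPKM of 6 astrocyte markers was between 50.2 and 78.6 in the replicate 1 libraries and between 260 and 831 in those of replicate 2, where it was higher on each later day, and the defining *Gfap* was at 14.7 to 45.5 and at 154 to 603. All 5 microglia markers were at 0 in every library, and 4 endothelial genes summed to at most 3.31 FPKM. Of 5 genes taken as neuron markers, the summed FPKM was between 132 and 283. *Tubb3* and *Map2*, which immature oligodendrocytes are also known to express, made up nearly all of it, while the defining *Rbfox3* was at 0 in 6 libraries and at most 0.305 in the others. *Tubb3* went from 60.2 and 20.8 at Day 0 to 231 and 113 at Day 3, and *Map2* from 188 and 203 to 51.0 and 28.2. The part of these other markers in the results was not tested. In a bulk library, fewer cells of a type and less RNA per cell cannot be told apart.

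Of the 9 genes, 3 fell between Day 0 and Day 3 and 1 rose. *Uhrf1*, *Dnmt1* and *Mbd3* were lower at Day 3, *Dnmt3a* was higher, and the other 5 did not pass the test. Differences are in log2(FPKM + 1) and were tested with limma over 12208 genes, all 9 among them, with an adjusted p under 0.05 as the threshold. The same comparison called 38.2% of all tested genes, 12% higher and 26.3% lower, so 4 called of 9 is near the share of all genes. The replicates of Day 0 and Day 3 did not overlap for 8 of the 9, against 71.4% of all tested genes. The median of all genes was itself -0.31 on this scale. Median ratio scaling took it to -0.04 and turned the split of all calls from 1460 higher and 3207 lower to 2135 and 2047. The Day 3 differences of the 4 called genes are therefore also given relative to that median. Under this scaling all 4 genes kept their calls and *Tet3* was called higher too.

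**Figure D1:**
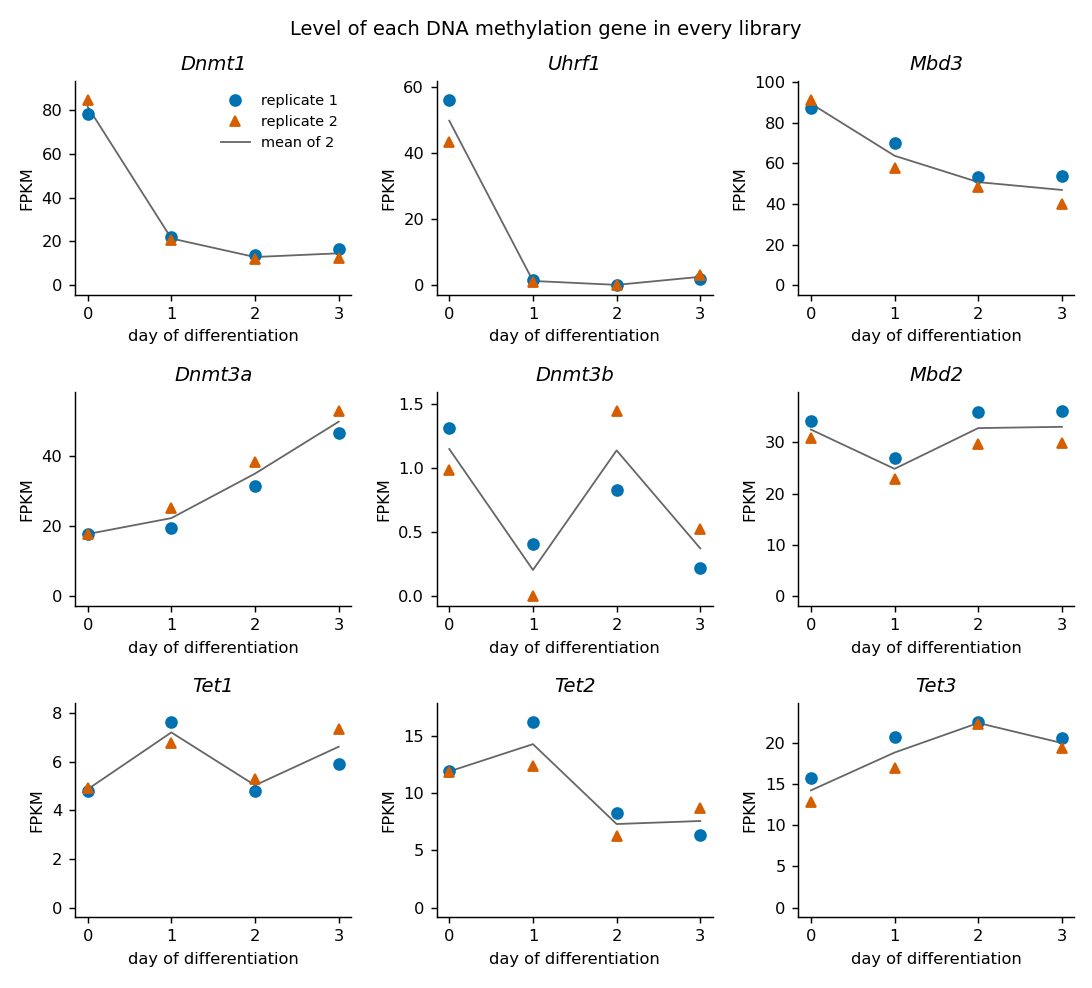
FPKM of each of the 9 genes on each day of differentiation, with a point for each library and a line through the mean of the 2 replicates; each panel has its own scale from 0. *Dnmt1* and *Uhrf1* drop between Day 0 and Day 1, *Mbd3* is lower on each later day, and *Dnmt3a* is higher on each later day, from 17.7 and 17.9 to 46.8 and 53.1.

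**Figure D2:**
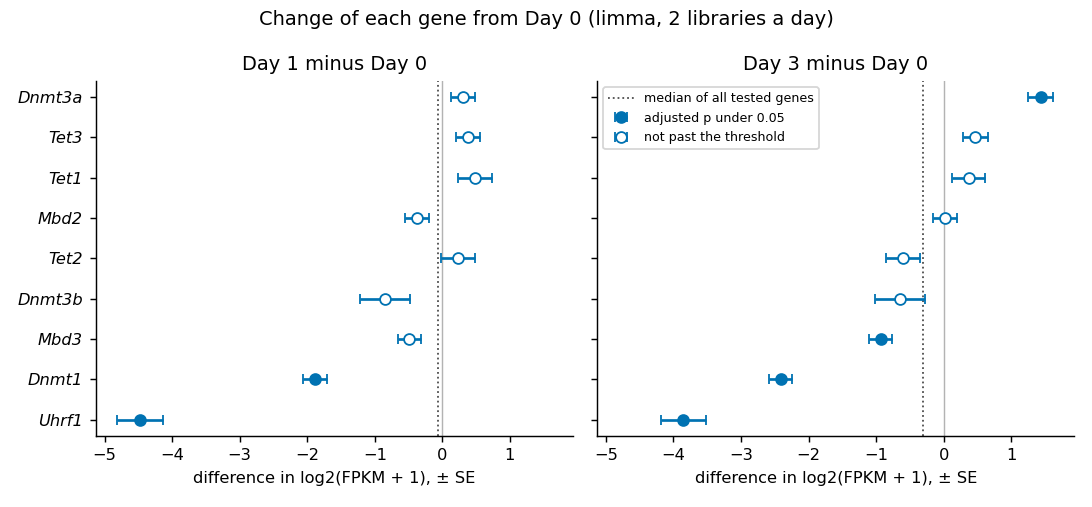
Difference from Day 0 in log2(FPKM + 1) at Day 1 (left) and Day 3 (right) for each gene, with the SE of the limma fit; filled points passed the threshold, and the dotted line is the median of all tested genes. On Day 1 *Uhrf1* and *Dnmt1* are past the threshold, and at Day 3 *Mbd3* and *Dnmt3a* as well.

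The step at which the genes moved differed. From Day 0 to Day 1, 2 of the 9 were called, *Uhrf1* and *Dnmt1*, both lower, against 12.6% of all genes called, 5.04% higher and 7.56% lower. From Day 1 to Day 2 limma called 0 of the 9, against 3.89% of all genes (6.58% with the replicate number as a block). At this step 4 had an unadjusted p under 0.05 (*Dnmt1*, *Uhrf1*, *Tet2* and *Dnmt3a*), against 21.8% of all genes. From Day 2 to Day 3 limma also called 0, against 0.295% of all genes (1.34% with the block). Here 2 had an unadjusted p under 0.05 (*Uhrf1* and *Dnmt3a*), against 14.5% of all genes. A linear trend over the days was called for 6 of the 9, against 42.3% of all genes, 12.4% rising and 29.9% falling. It fell for *Uhrf1*, *Dnmt1*, *Mbd3* and *Tet2* and rose for *Dnmt3a* and *Tet3*. For *Uhrf1*, whose course was no straight line, the slope of -1.26 per day did not pass the exact permutation test (p = 0.0690), and for *Dnmt1* that test gave p = 0.00635.

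*Dnmt1*, the maintenance methyltransferase (chromosome 9, 20907209 to 20959888, minus strand, build GRCm38), was at 78.4 and 84.9 FPKM at Day 0, 22.2 and 20.6 at Day 1, 13.6 and 12.2 at Day 2, and 16.6 and 12.6 at Day 3. Both libraries of Day 0 lay far above every later one, and those of Day 2 and Day 3 overlapped. It fell by 1.88 ± 0.18 (SE) on the log2 scale from Day 0 to Day 1 (limma, adjusted p = 8.74e-04), a mean level 3.82-fold lower. From Day 0 to Day 3 it fell by 2.42 ± 0.18 (adjusted p = 8.42e-05), 5.59-fold in the means, and relative to the median of all genes the difference was -2.10. Between Day 1 and Day 2 the difference was -0.69 ± 0.18 and missed the threshold (adjusted p = 0.0708). The level at Day 3 rested on 95 and 64 fragments, against 631 and 546 at Day 0.

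*Uhrf1*, which recognises half-methylated DNA and recruits Dnmt1 to it (chromosome 17, 56303321 to 56323486, plus strand), went from among the most abundant of the 9 to the edge of detection. It was at 56.2 and 43.4 FPKM at Day 0, 1.68 and 0.919 at Day 1, listed at 0 and at 0.221 at Day 2, and at 1.89 and 3.22 at Day 3. Both libraries of Day 0 lay far above all later ones, and Day 2 was the lowest of the 4 days in both replicates. *Uhrf1* fell by 4.47 ± 0.34 from Day 0 to Day 1 (limma, adjusted p = 7.48e-04) and by 3.85 ± 0.34 from Day 0 to Day 3 (adjusted p = 1.42e-04). At the first of these steps it ranked 16 of 12208 genes from the most negative. Relative to the median of all genes the difference to Day 3 was -3.54. The later levels rest on few fragments: 474 in the Day 0 libraries together, 11 at Day 1, 1 at Day 2 and 17 at Day 3. By these fragments Day 0 exceeded Day 1 by 39.1-fold (95% interval 21.7 to 78.9) and Day 3 by 20.7-fold (12.8 to 35.8), and Day 2 by 438-fold with an interval of 78.2 to 17324, all intervals covering counting error only. The values at Day 3 were above those of Day 2 in both replicates, with a difference of 1.66 ± 0.34 that did not pass (adjusted p = 0.0867).

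Since both proteins act at replication, their mRNAs were set beside 18 S phase genes (the *Mcm* helicase subunits, nucleotide enzymes and others). The list's summed FPKM was between 890 and 929 at Day 0 and between 115 and 162 in every later library. All 18 were called lower at Day 1 and at Day 3, and the median differences were -2.63 and -2.73, with 13 of the 18 below *Dnmt1* at Day 3. *Rrm2*, a subunit of ribonucleotide reductase, fell by 4.31 to Day 3 (adjusted p = 4.78e-05). The helicase subunit *Mcm6* fell by 3.96 (adjusted p = 2.02e-04). *Uhrf1* stood near the lower end of the list: at Day 1 only *Rrm2* had a larger fall, and at Day 3 it was exceeded by 3 of the 18. *Dnmt1* stood near the upper end at Day 1, where 16 of the 18 had fallen more. Within each library, *Dnmt1* minus the mean of the S phase genes averaged 1.16 at Day 0, 2.06 at Day 1, 1.66 at Day 2 and 1.53 at Day 3, so *Dnmt1* was relatively higher in all later libraries. Its slope on day was 0.07 per day (two-sided exact permutation test over all 2520 arrangements of the libraries, p = 0.584). *Uhrf1* minus the same mean averaged 0.45, -1.24, -1.99 and -0.62 on the 4 days, with a slope of -0.40 per day (exact permutation test, p = 0.221). Neither of these courses was a straight line: the first had its highest mean at Day 1 and the second its lowest at Day 2. *Uhrf1* minus *Dnmt1* averaged -0.71 at Day 0, -3.30 at Day 1, -3.65 at Day 2 and -2.15 at Day 3, with a slope of -0.47 per day (exact permutation test, p = 0.263). With a library left out, the slope of *Uhrf1* against *Dnmt1* ranged from -0.80 (without Day 3 replicate 2) to -0.17 (without Day 0 replicate 1), and that against the S phase genes from -0.65 to -0.20 without the same libraries, none past the threshold.

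**Figure D3:**
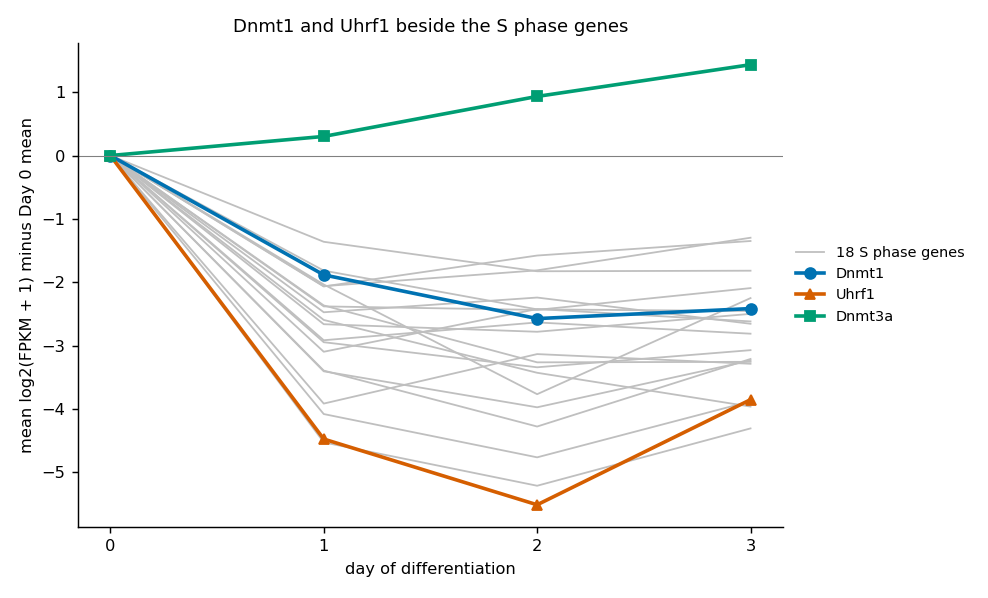
Mean log2(FPKM + 1) of each day minus the mean of Day 0, for *Dnmt1*, *Uhrf1*, *Dnmt3a* and, in grey, each of 18 S phase genes (2 libraries a day). *Uhrf1* follows the lower edge of the grey lines and *Dnmt1* their upper part, while *Dnmt3a* is above 0 on every later day.

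The promoters of these genes are shown because *Dnmt1* and *Uhrf1* fell together with S phase genes, many of which are known targets of E2F factors, and *Dnmt3a* rose. RefSeq lists 3 start sites for *Dnmt1*, 2 for *Uhrf1* and 3 for *Dnmt3a*. For each gene the window with the most CpG is printed (250 bases before to 50 after the start, GRCm38.p6, 5′ to 3′ on the strand of the gene). Capitals mark E2F words, that is TTTCCCGC, TTTCGCGC, TTTGCCGC or TTTGGCGC on either strand. The windows are chr9:20952574-20952873 (minus strand), chr17:56304063-56304362 (plus strand) and chr12:3806910-3807209 (plus strand).
Dnmt1: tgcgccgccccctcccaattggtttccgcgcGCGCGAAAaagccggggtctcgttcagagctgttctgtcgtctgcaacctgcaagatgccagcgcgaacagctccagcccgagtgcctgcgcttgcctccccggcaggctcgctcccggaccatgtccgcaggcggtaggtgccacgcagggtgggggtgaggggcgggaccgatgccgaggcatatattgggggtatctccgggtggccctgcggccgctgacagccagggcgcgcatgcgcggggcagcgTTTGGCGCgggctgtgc
Uhrf1: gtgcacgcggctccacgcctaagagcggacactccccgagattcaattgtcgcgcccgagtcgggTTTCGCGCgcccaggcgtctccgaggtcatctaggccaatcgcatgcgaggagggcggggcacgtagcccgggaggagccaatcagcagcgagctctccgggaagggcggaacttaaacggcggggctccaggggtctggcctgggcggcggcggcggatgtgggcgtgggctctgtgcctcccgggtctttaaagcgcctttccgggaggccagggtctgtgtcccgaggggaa
Dnmt3a: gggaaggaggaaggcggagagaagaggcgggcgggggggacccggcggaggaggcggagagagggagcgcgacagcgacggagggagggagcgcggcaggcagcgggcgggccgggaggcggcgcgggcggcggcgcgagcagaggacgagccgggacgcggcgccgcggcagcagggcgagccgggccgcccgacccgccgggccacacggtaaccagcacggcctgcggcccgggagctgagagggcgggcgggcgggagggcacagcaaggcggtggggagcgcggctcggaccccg

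The windows printed for *Dnmt1* and *Uhrf1* each hold 33 CpG, more than 91.4% of the 32851 windows listed for mouse, whose median is 7, and that of *Dnmt3a* holds 47. An E2F word occurs in 2.26% of all windows and in 5.06% of the 3837 with at least 30 CpG. The *Dnmt1* window has 2, on opposite strands at bases 32 to 39 and 284 to 291, and the *Uhrf1* window has 1, at bases 66 to 73. No E2F word was found in the other listed windows of *Dnmt1* and *Uhrf1* or in those of *Dnmt3a*, *Dnmt3b*, *Tet1*, *Tet2*, *Tet3* and *Mbd3*, and *Mbd2* was not searched. The start site of the printed *Dnmt1* window lies 356 bases downstream of a principal start of GENCODE M21. The whole printed window is thus downstream of that principal start, whose own window holds 12 CpG and no E2F word. In the printed window, the E2F word at bases 284 to 291 also lies after the start site of the window itself. A CCAAT box, in 37.4% of all windows on either strand, occurs 3 times in the *Dnmt1* window, with 2 of the matches overlapping, 2 times in that of *Uhrf1* and 0 times in that of *Dnmt3a*. The values are per gene and do not show which start was used, and the motifs were chosen with the levels known. The shares are per window, whereas each printed window was picked from the 2 or 3 listed for its gene. A part of E2F factors in these changes was not tested.

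*Dnmt3a*, a de novo methyltransferase (chromosome 12, 3806007 to 3914443, plus strand), rose over the whole course. It was at 17.9 and 17.7 FPKM at Day 0, 19.5 and 25.3 at Day 1, 31.7 and 38.5 at Day 2, and 46.8 and 53.1 at Day 3. No library of a day overlapped with one of the day before. From Day 0 to Day 3 it rose by 1.43 ± 0.18 (limma, adjusted p = 6.01e-04), 2.80-fold in the means, and by 1.75 relative to the median of all genes. None of the 3 single steps passed: they were 0.30, 0.63 and 0.50, with adjusted p of 0.333, 0.0941 and 0.249. The trend over the days was 0.49 per day (adjusted p = 3.54e-04), and the exact permutation test of the slope gave p = 7.94e-04, the smallest that the 2520 arrangements allow. The difference was 1.34 in replicate 1, where the astrocyte markers summed to 62.8 FPKM at Day 0 and 78.6 at Day 3, and 1.53 in replicate 2, where they summed to 260 and 831. *Dnmt3a*, *Dnmt3b*, *Tet2* and *Tet3* each overlap a gene on the opposite strand, and whether the authors counted fragments by strand is not given in the sources used here.

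*Dnmt3b*, the other de novo enzyme (chromosome 2, 153649450 to 153687730, plus strand), was at 1.32 and 0.982 FPKM at Day 0, 0.412 and 0 at Day 1, 0.829 and 1.45 at Day 2, and 0.221 and 0.527 at Day 3. It was the lowest of the 9 on every day but Day 2. These values rest on 8 fragments at most, and all 4 libraries of Day 1 and Day 3 were at or under the floor of 3 fragments. A difference was not detectable at this depth (Day 3 minus Day 0 -0.65 ± 0.37, limma, adjusted p = 0.194).

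The opposite courses exchanged the leading methyltransferase mRNA. On Day 0, *Dnmt1* made up 80.3% and 81.9% of the summed FPKM of the 3 methyltransferases in the replicates, and *Dnmt3a* 18.4% and 17.1%. On Day 1 they were about level, with *Dnmt1* at 52.7% and 44.9%, and the replicates disagree on which led. On Day 3 *Dnmt3a* held 73.6% and 80.1% and *Dnmt1* 26.0% and 19.1%. The sum itself was 100.6 at Day 0, 44.0 at Day 1, 49.1 at Day 2 and 64.9 at Day 3 (means of 2). In log2(FPKM + 1), *Dnmt3a* minus *Dnmt1* was -2.07 and -2.20 at Day 0, -0.18 and 0.28 at Day 1, 1.16 and 1.58 at Day 2, and 1.44 and 1.99 at Day 3. The slope was 1.29 per day (exact permutation test, p = 0.00159, adjusted over the 9 ratios tested 0.00714). A difference within a library depends on the scaling between libraries only through the pseudocount. The shares, and the day on which the 2 mRNAs were level, also depend on the transcript lengths used. These are not given in the sources used here.

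**Figure D4:**
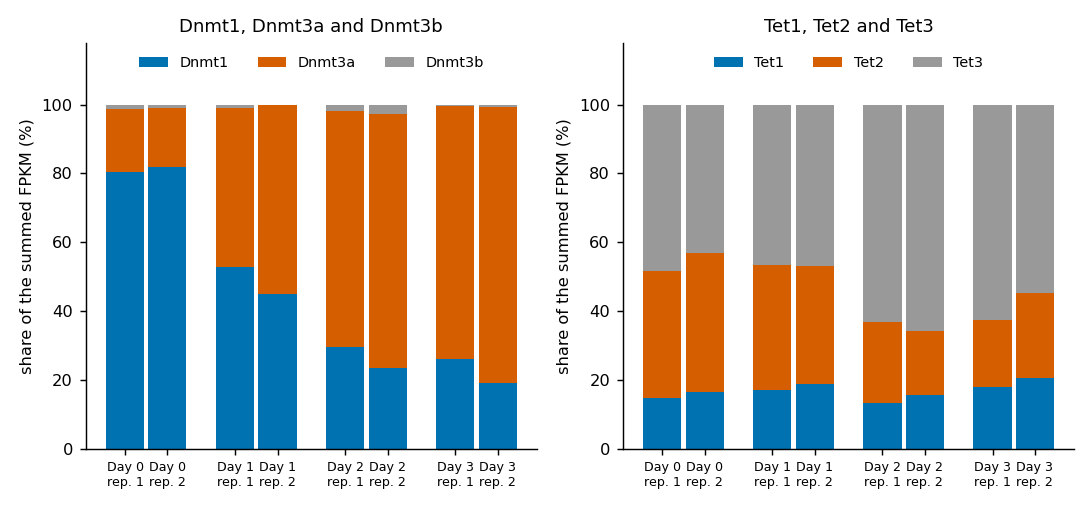
Share of each gene in the summed FPKM of the methyltransferases (left) and of the Tet enzymes (right), a bar for each library. *Dnmt1* goes from 80.3% and 81.9% at Day 0 to 26.0% and 19.1% at Day 3, and *Tet3* has its largest shares, 63.3% and 65.8%, at Day 2.

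None of the 3 Tet dioxygenases passed the test between Day 0 and Day 3. *Tet3* (chromosome 6, 83362373 to 83459084, minus strand), the most abundant of them on every day, was at 15.7 and 12.8 FPKM at Day 0, 20.8 and 16.9 at Day 1, 22.6 and 22.3 at Day 2, and 20.6 and 19.4 at Day 3. The later libraries all lay above those of Day 0. Day 3 minus Day 0 was 0.47 ± 0.18 (limma, adjusted p = 0.0756), and 0.77 with adjusted p = 0.0114 under median ratio scaling, which ranks as a call. Its trend was 0.17 per day (adjusted p = 0.0489, exact permutation test of the slope p = 0.0421), a call lost when any one of 7 of the 8 libraries was left out, all but Day 1 replicate 1 (largest adjusted p 0.218, without Day 0 replicate 2).

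*Tet2* (chromosome 3, 133463679 to 133545139, minus strand) was at 11.9 in both libraries of Day 0, 16.3 and 12.3 at Day 1, 8.32 and 6.30 at Day 2, and 6.39 and 8.75 at Day 3. The libraries of the last 2 days lay below all those of the first 2, and they overlapped with each other. Day 2 minus Day 1 was -0.88 ± 0.25 (limma, adjusted p = 0.0938) and Day 3 minus Day 0 -0.60 ± 0.25 (adjusted p = 0.0899). The trend fell by 0.27 per day (adjusted p = 0.0256, exact permutation test of the slope p = 0.0508). That call was lost without Day 0 replicate 1, Day 0 replicate 2 or Day 3 replicate 1 (adjusted p 0.0999, 0.0996 and 0.107), and under median ratio scaling (0.133). *Tet1* (chromosome 10, 62804570 to 62908996, minus strand) was at 4.81 and 4.92 at Day 0, 7.64 and 6.77 at Day 1, 4.78 and 5.28 at Day 2, and 5.90 and 7.34 at Day 3, with no call at any step. Its levels at Day 1 and Day 3 were above those of Day 0 in both replicates, by 0.48 ± 0.24 and 0.37 ± 0.24 (adjusted p 0.252 and 0.262).

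The Tet genes were also compared in pairs within each library. *Tet2* minus *Tet1* in log2(FPKM + 1) averaged 1.14 at Day 0, 0.89 at Day 1, 0.45 at Day 2 and 0.16 at Day 3, a slope of -0.34 per day (exact permutation test, p = 0.00159, adjusted over the 9 ratios 0.00714). On Day 0 *Tet2* was above 2-fold over *Tet1* in both libraries, at 2.48 and 2.42, and at Day 3 the ratios of FPKM were 1.08 and 1.19. *Tet3* minus *Tet2* averaged 0.23, 0.38, 1.51 and 1.31, a slope of 0.43 per day (exact permutation test, p = 0.0175, adjusted 0.0314). Between Day 1 and Day 2 it widened in both replicates. With days permuted within replicate numbers, the exact permutation test gave p = 0.0382, not adjusted over the ratios. Without Day 0 replicate 2, the exact permutation test gave p = 0.0508. *Tet3* minus *Tet1* had a slope of 0.10 per day (exact permutation test, p = 0.352).

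**Figure D5:**
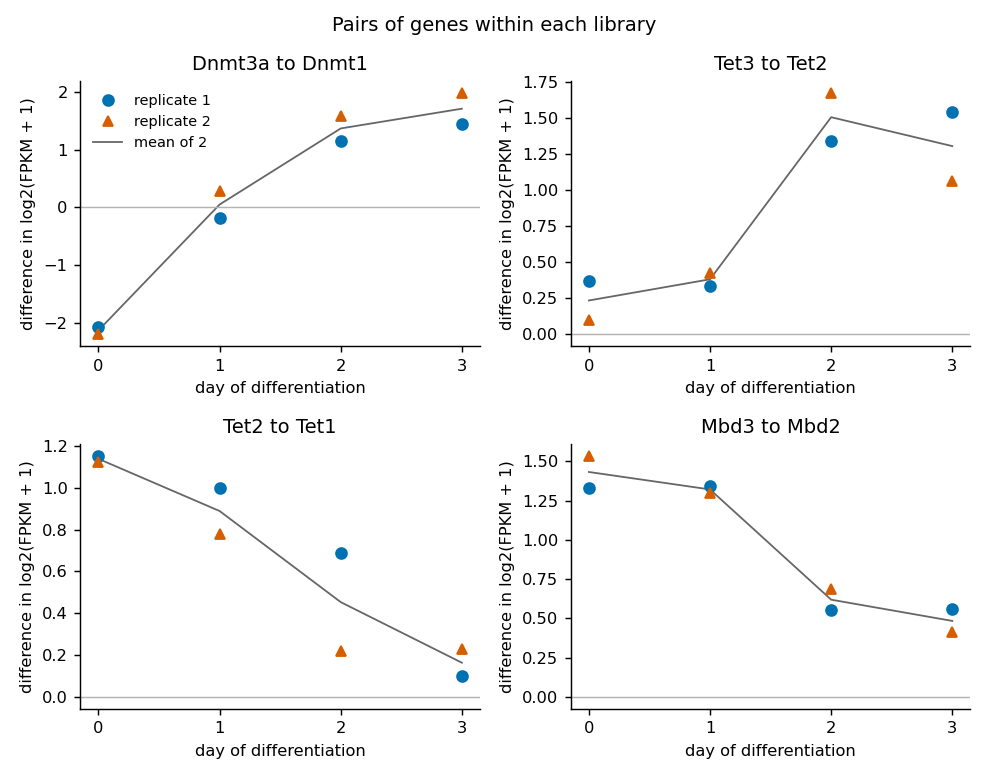
Difference in log2(FPKM + 1) between 2 genes within each library, by day, with the mean of the replicates as a line; 0 means equal levels. *Dnmt3a* passes *Dnmt1* around Day 1, *Tet3* separates from *Tet2* between Day 1 and Day 2, and *Tet2* and *Mbd3* approach *Tet1* and *Mbd2*.

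*Mbd3*, the NuRD subunit with little affinity for methylated DNA (chromosome 10, 80392539 to 80399550, minus strand), was the most abundant of the 9 at Day 0, Day 1 and Day 2. It was at 87.4 and 91.3 FPKM at Day 0, 69.8 and 57.6 at Day 1, 53.2 and 48.2 at Day 2, and 53.7 and 40.1 at Day 3. The libraries of Day 0, Day 1 and Day 2 did not overlap, and those of Day 2 and Day 3 did. From Day 0 to Day 3 it fell by 0.93 ± 0.17 (limma, adjusted p = 0.00387), 1.91-fold in the means, and relative to the median of all genes the difference was -0.62. The exact permutation test of its slope of -0.31 per day gave p = 0.00397. *Mbd2*, the methyl-CpG binding counterpart in NuRD (chromosome 18, 70568189 to 70626131, plus strand), was at 34.2 and 30.8 at Day 0, 26.9 and 22.8 at Day 1, 35.9 and 29.6 at Day 2, and 36.2 and 29.9 at Day 3. Day 3 and Day 0 overlapped and differed by 0.02 ± 0.18 (limma, adjusted p = 0.946), and the lower values of Day 1 did not pass (-0.38 ± 0.18, adjusted p = 0.216). Within a library, *Mbd3* minus *Mbd2* averaged 1.43 at Day 0, 1.32 at Day 1, 0.62 at Day 2 and 0.48 at Day 3, a slope of -0.35 per day (exact permutation test, p = 0.00317, adjusted over the 9 ratios 0.00952).

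The other NuRD subunits give the setting of the *Mbd3* change. Of 12, 6 were called lower at Day 3 than at Day 0 and 1 higher, with a median difference of -0.49, against -0.31 for all genes. Under median ratio scaling 4 were lower and 1 higher. The histone-binding *Rbbp7* fell by 1.31 (adjusted p = 0.00112). *Mta1* fell by 1.00 (adjusted p = 0.00125). The remodelling ATPase *Chd3* rose by 0.75 (adjusted p = 0.0186), from a mean of 23.6 to 41.0 FPKM. Of 8 other genes for readers of methylated DNA, limma called 0 in either direction between Day 0 and Day 3, and 1 was called lower with the replicate number as a block. Their median difference was -0.14.

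Among 7 partners of the writers, 6 passed the filter, *Dnmt3l* being at 0 at Day 0 and Day 3, and 4 were called lower at Day 3 (3 under median ratio scaling) and 0 higher. The median of the 6 was -1.44. *Pclaf*, a partner of the replication clamp that is known to help recruit Dnmt1, fell by 5.25 (adjusted p = 7.75e-05), from a mean of 88.2 to 1.40 FPKM. *Hells*, a remodeller needed for methylation of repeats, fell by 2.54 (adjusted p = 0.00407), from 11.4 to 1.15. Of 9 genes of the methyl donor supply, 5 were called lower, and 4 under median ratio scaling, with a median of -0.97 over the list. *Shmt1*, which loads a one-carbon unit onto folate, fell by 3.63 (adjusted p = 4.35e-04), and *Ahcy*, which clears the product of the methyl transfer, by 1.60 (adjusted p = 0.00229).

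Of 14 partners of demethylation, 4 were lower and 2 higher at Day 3, and under median ratio scaling 2 were lower and 3 higher. With the replicate number as a block 4 were lower and 3 higher. The reported counts are near the shares of all genes called, 26.3% lower and 12% higher, and the list's median was 0.02. *Idh1*, which makes 2-oxoglutarate, the cosubstrate of Tet enzymes, rose by 1.36 (adjusted p = 0.00180), from 103 to 268 FPKM. Its relative *Idh2*, in the same list, fell by 0.79 (adjusted p = 0.0118), from 33.2 to 19.0 FPKM. Under median ratio scaling *Idh2* was not called (-0.48, adjusted p = 0.0632). The stress gene *Gadd45a* rose by 1.17 (adjusted p = 0.00187). The base excision nuclease *Apex1* fell by 1.97 (adjusted p = 0.00806), and *Parp1* by 0.91 (adjusted p = 0.00632).

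The order of levels was *Mbd3*, *Dnmt1*, *Uhrf1*, *Mbd2*, *Dnmt3a*, *Tet3*, *Tet2*, *Tet1*, *Dnmt3b* at Day 0, from the highest, with no overlap between neighbours. On Day 3 it was *Dnmt3a*, *Mbd3*, *Mbd2*, *Tet3*, *Dnmt1*, *Tet2*, *Tet1*, *Uhrf1*, *Dnmt3b*. There the replicates of *Dnmt3a* and *Mbd3* overlapped, as did those of *Tet2* and *Tet1*. Between these days *Uhrf1* went from rank 3 to rank 8 and *Dnmt3a* from rank 5 to rank 1.

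The genes most like each in course were found by Pearson's r of log2(FPKM + 1) over the 8 libraries, among 8655 genes with a mean of at least 5 FPKM, as a description only. The points share their days and libraries and are not independent. For *Uhrf1* they were the mitotic checkpoint gene *Mad2l1*, the helicase subunit *Mcm3* and *Cdca2*, with r of 0.994, 0.992 and 0.991. For *Dnmt1* they were *Ppia*, *Dut* and *Dek*, with r of 0.996, 0.994 and 0.994. For *Dnmt3a* they were *Rapgef2*, *Smad7* and *Dip2a*, with r of 0.995, 0.995 and 0.994, of which *Smad7*, an inhibitor of TGF-β signalling, went from a mean of 1.98 to 28.0 FPKM. For *Mbd3* they were *Suds3*, *Tubg1* and *Cacng4*, with r of 0.996, 0.995 and 0.992. The best r was 0.986 for *Tet2* (*Igbp1*, then *Bptf* and *Gas5*), 0.981 for *Tet3* (*AU040320*, then *Rab11fip2* and *Plekhb1*), and between 0.936 and 0.962 for *Tet1* (*Slc35e3*, *Leng1*, *Gltscr1*), *Mbd2* (*Cd2bp2*, *Snx8*, *Ccdc115*) and *Dnmt3b* (*Ndufs6*, *Zfp58*, *Fbxw4*). Among the 9 themselves, r was 0.937 between *Dnmt1* and *Uhrf1*, 0.935 between *Dnmt1* and *Mbd3*, and -0.922 between *Dnmt3a* and *Mbd3*.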

How the data were processed

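The mRNA of 8 libraries was analysed, with days and replicate numbers taken from the sample labels. The authors made stranded mRNA libraries, read them as paired ends on a MiSeq system and processed the reads with OmicSoft ArrayStudio. They deposited a single table of FPKM, a column per library with replicates not pooled. The submitters' processing notes name the build mm10. The aligner, the gene model and the use of strand in counting are not given in the sources used here. The authors name DESeq2 for differential expression, which needs counts and was not used.

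The 12208 genes of 23427 that reached 1 FPKM in 2 or more libraries were tested on log2(FPKM + 1), which understates the change of low genes, in R 4.3.3 with limma 3.58.1 (lmFit, eBayes with a trend, the day as a factor of 4 levels, all 8 libraries, Benjamini-Hochberg over all tested genes). Slopes on day were tested two-sided by exact permutation. All 2520 arrangements of the libraries were enumerated, with a smallest p of 7.94e-04, and 576 within replicate numbers. Other steps used Python 3.11.15 (scipy 1.17.1, pandas 2.3.3, numpy 2.4.6; figures with matplotlib 3.10.9). The model and the slope test were tested on simulated data. Coordinates are those of GENCODE M21 (GRCm38) and promoter windows those of RefSeq (GRCm38.p6).

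The replicate numbers pair the libraries: the differences between replicates correlated between all 6 pairs of days (r from 0.16 to 0.29 over genes). The block changed no call of the 9 genes.

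The depth was estimated from FPKM steps of genes with 1 annotated transcript, and fragments per gene follow from it and an annotated length. Values at or under 3 fragments were taken as the floor. Intervals are exact (95%). Per day 2 replicates limit the precision, and if they are technical the p-values measure only that spread.

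The 9 genes, the gene lists and the ratios were chosen with earlier results of these data known. Of each list the text names the called genes with the 2 largest rises and the 2 largest falls from Day 0 to Day 3, and for each of the 9 genes the 3 most alike by r. *Idh2* is named beside *Idh1* as well. *Pclaf* is listed under an older symbol. Results that need a withheld item are not reported here. Alternatives were a pseudocount of 0.1, no filter, a minimum of 10 FPKM in 1 library, a same sum per library, median ratio and quantile scaling, eBayes without a trend, fits of only the compared days, the block, each library left out, and ranks for the ratios.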

Additional observations from a re-analysis of the deposited data

How the results depend on the processing

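The counts of called genes among the 9 kept their value or stayed within 1.5 times under all alternatives for each single step between days. From Day 1 to Day 2 and from Day 2 to Day 3 these counts were 0. Fits of only the compared days called 0 of all tested genes at both of these steps. From Day 2 to Day 3 this also held with no filter and with eBayes without a trend. The counts of 0 could not change under those settings. From Day 0 to Day 3 the count of lower genes stayed at 3 with each library left out, and that of higher genes, 1 as reported, was 2 with the same sum per library, 2 under median ratio scaling and 3 under quantile normalization, where *Tet3* and, in the last, *Tet1* (adjusted p = 0.0298) joined *Dnmt3a*. Genes with a rising trend, 2 as reported, were 1 with no filter, 1 with eBayes without a trend, between 1 and 2 with a library left out, and 3 under median ratio scaling and under quantile normalization, the last with *Tet1* (0.23 per day, adjusted p = 0.0455). The trend of *Tet2* did not pass with the same sum per library (adjusted p = 0.0587), median ratio (0.133) or quantile scaling (0.169), and *Mbd2* was called rising under median ratio scaling (0.16 per day, 0.0405). The cause of these changes was not tested.

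Of the 9 ratios, *Dnmt3a* to *Dnmt3b* (0.61 per day, exact permutation test p = 0.00635) did not pass with a pseudocount of 0.1 (0.71, exact permutation test p = 0.161). *Dnmt3b* was at or under 3 fragments in 4 libraries, and the cause was not tested. *Tet3* to *Tet2* ranged from 0.40 to 0.54 with a library left out. *Dnmt1* to the S phase genes, near 0, ranged from -0.027 (without Day 0 replicate 1) to 0.15 with a library left out, and was 0.18 with a pseudocount of 0.1. With days permuted within replicate numbers, no ratio changed its side of the threshold by its unadjusted p. The exact permutation test then gave p = 0.00347 for *Dnmt3a* to *Dnmt1* and p = 0.0382 for *Tet3* to *Tet2*. These p-values were not adjusted over the 9 ratios.

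Single differences near 0 changed sign without any call for *Mbd2* from Day 0 to Day 3 (-0.11 to 0.15 with a library left out) and for the *Dnmt3b* trend under quantile normalization (0.019). Depth limits *Dnmt3b* and the later levels of *Uhrf1*, which rest on 10 fragments or fewer per library.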
